A study of Mus musculus with 29 samples.

Results

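The 10 genes described here encode enzymes that turn cholesterol into bile acids in the liver, namely Cyp7a1, Cyp8b1, Cyp27a1, Cyp7b1, Hsd3b7, Akr1d1, Amacr, Acox2, Baat and Slc27a5. They were taken by symbol from the 54532 genes of a count table, and all 10 were found and had enough counts to be tested among 15603 genes. The table comes from livers of obese male mice with a hepatocyte-specific knock-in of Prox1 K556R, in which a lysine that receives the small protein SUMO is replaced by arginine, and of wild-type (WT) controls. There were 8 K556R refed, 6 WT refed, 7 K556R fasted and 8 WT fasted livers, spread over 2 batches. Every mouse, WT included, ate chow until 8 weeks of age and then 45% fat with 20% fructose for 18 weeks, and livers were collected fasted or refed at ZT 15 to 17, with no length of fasting or refeeding given. The K556R allele was switched on by Cre recombination at 8 weeks, and neither the Cre driver nor what the controls received is given in the labels. Since no label says that each replicate came from its own animal, a p-value or SD here covers only library-to-library spread, which may be technical. Counts of livers are likewise counts of libraries.

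Bile acids are made from cholesterol along a classical and an alternative route. The classical route opens with Cyp7a1, the rate-limiting cholesterol 7-alpha-hydroxylase, and Cyp8b1 adds the 12-alpha-hydroxyl group that distinguishes cholic acid, while the alternative route opens with the mitochondrial sterol 27-hydroxylase Cyp27a1 and continues with the oxysterol 7-alpha-hydroxylase Cyp7b1. Both routes share the ring enzymes Hsd3b7 and Akr1d1, the peroxisomal side-chain enzymes Amacr and Acox2, the acyl-CoA synthetase Slc27a5 and the conjugating enzyme Baat. Prox1 is known to bind the nuclear receptors Nr5a2 and Hnf4a, which act on Cyp7a1 and Cyp8b1, and to repress their activity.

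Libraries held 14385218 to 27278251 counts. Values are given as CPM, the count relative to the library total after TMM scaling, and levels of different genes are compared only as CPM per kilobase of exon. Over all genes, 2 libraries stood apart from their own group and batch, K556R refed batch 1 replicate 4 and WT refed batch 2 replicate 1. Their root mean square distances from the median of the group in that batch were 0.448 and 0.434 on the log2 scale, and the next library was at 0.278. Several results of the members and of the other named bile acid genes are given with and without both. Where only 1 value is given, it includes both libraries. Hepatocyte markers were high in every library, with 60400 to 109000 CPM summed over 6 genes, and the 4 adipocyte markers summed to at most 0.287 CPM. Prox1 transcripts, 150 ± 25.5 CPM in K556R refed (SD, n = 8), 164 ± 22.7 in WT refed (n = 6), 186 ± 12.2 in K556R fasted (n = 7) and 174 ± 13.0 in WT fasted livers (n = 8), count both alleles alike and check no genotype label. Without those 2 libraries the refed means were 142 ± 15.0 CPM in K556R (n = 7) and 172 ± 13.4 CPM in WT livers (n = 5). In bulk liver, fewer cells of a type and less RNA per cell cannot be told apart.

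Levels per length ordered the genes from Slc27a5, with a mean of 288 CPM per kb over the 29 livers, through Cyp8b1 at 203, Cyp27a1 at 190.0, Baat at 140.0, Akr1d1 at 65.4, Acox2 at 59.4, Amacr at 56.5, Cyp7b1 at 37.3 and Cyp7a1 at 28.7, down to Hsd3b7 at 0.495 CPM per kb. Slc27a5 was above every other member in 29 of 29 livers, and Hsd3b7 was below every other member. Neighbours in this order were often not separate. Cyp8b1 was above Cyp27a1 in 16 of 29 livers, Akr1d1 above Acox2 in 15 and Acox2 above Amacr in 18, so the 2 genes of each pair did not differ beyond their spread. Cyp7b1 was above Cyp7a1 in only 10 of 29 livers although its mean was higher, and it ranged from 9.41 to 239 CPM per kb.

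**Figure D1:**
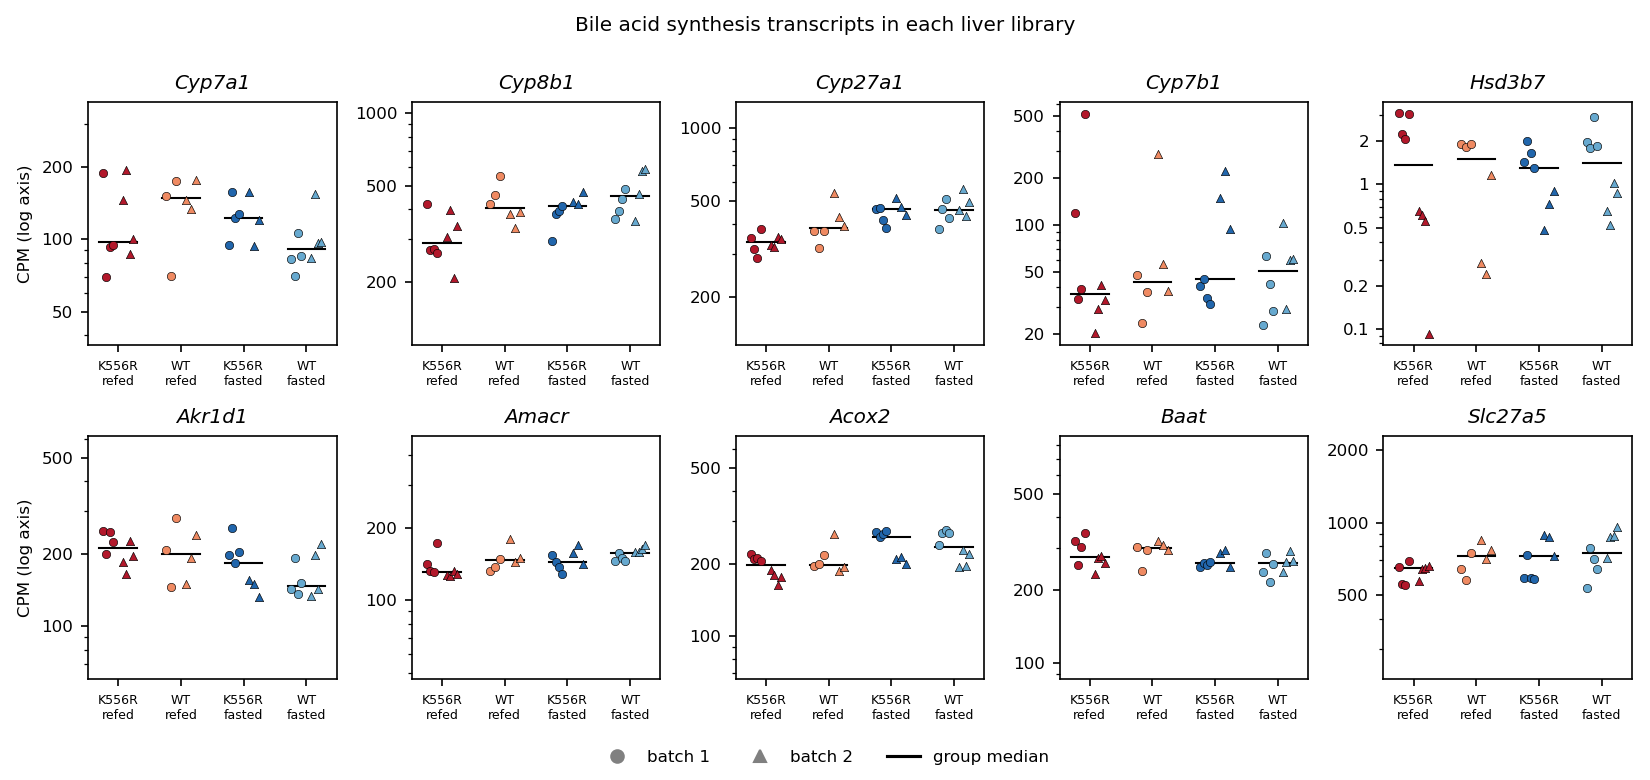
Transcript level of each gene in each of the 29 livers, as CPM on a log axis, with K556R refed, WT refed, K556R fasted and WT fasted livers from left to right in each panel. Circles are batch 1, triangles batch 2 and black lines group medians; Cyp27a1 of K556R refed livers lies below all K556R fasted livers, and Cyp7b1 runs from 20.4 to 517 CPM.

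The contrasts asked whether K556R changes the transcripts in either feeding state and whether refeeding changes them in either genotype. No member was called for genotype by edgeR's quasi-likelihood test at an adjusted p below 0.05, in refed livers (0 of 10, where 0% of the 15603 tested genes were called), in fasted livers (0 of 10, against 0.103%) or for the mean of both states (0 of 10, against 1.24%). At an unadjusted p below 0.05 the counts were 3, 0 and 3 members, and DESeq2 called 0, 0 and 1, the 1 being Cyp8b1. Refeeding gave 2 called members in K556R livers, Cyp27a1 and Acox2, both lower, where 15.4% of tested genes were called and 8.38% were called lower, a share of members near the background. There 4 members had an unadjusted p below 0.05, and DESeq2 called Cyp8b1 in addition. In WT livers 0 members were called, against 10.7% of genes, with 3 at an unadjusted p below 0.05 and 0 by DESeq2. No genotype effect was called as different between the feeding states for any member (0 of 10, against 0% of genes, 1 member at an unadjusted p below 0.05 and 0 by DESeq2).

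**Figure D2:**
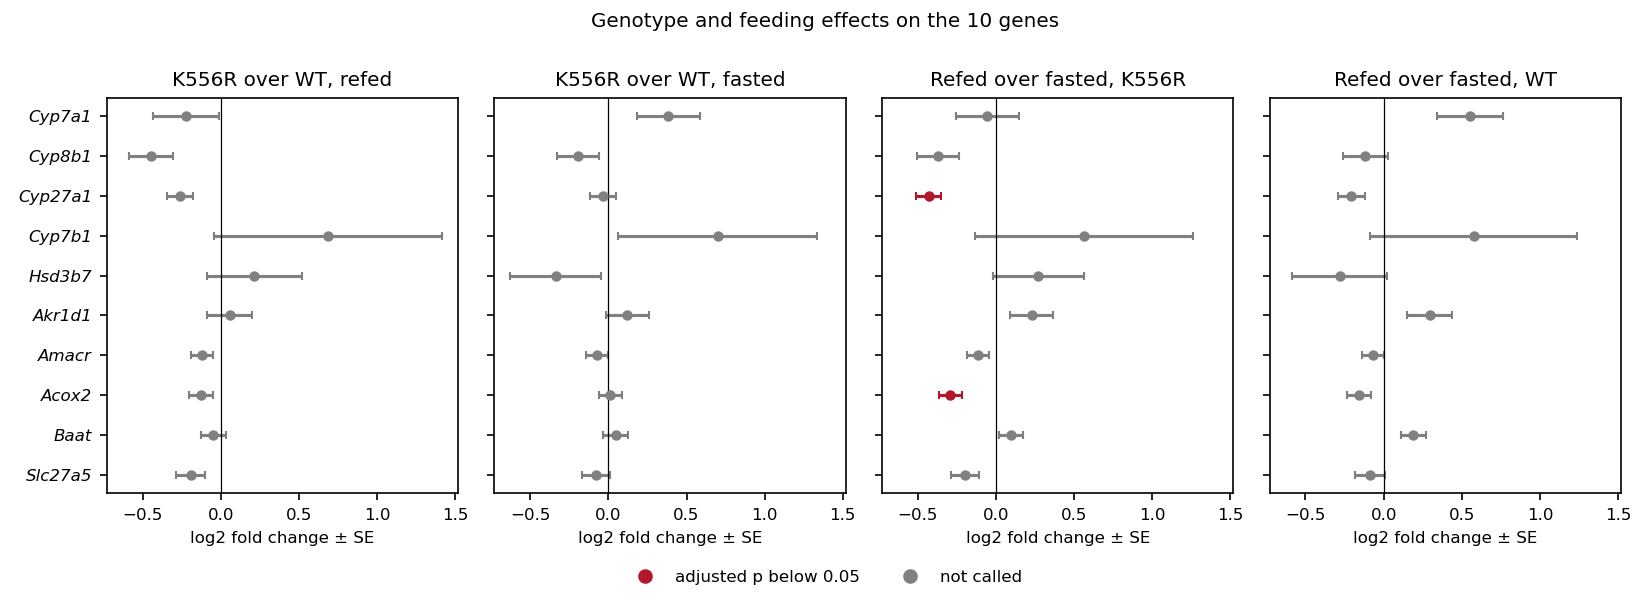
Log2 fold change with its standard error for each gene, from left to right for K556R over WT in refed livers, K556R over WT in fasted livers, refed over fasted in K556R livers and refed over fasted in WT livers. Red marks an adjusted p below 0.05; only Cyp27a1 (-0.43) and Acox2 (-0.29) in the K556R refeeding panel are red, and Cyp7b1 has the widest errors.

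On the classical route, Cyp7a1 varied widely in every group and no contrast called it. Cyp7a1 (ENSMUSG00000028240, GRCm38 chromosome 4, 6265612 to 6275633, minus strand) ranged from 69.9 over a median of 97.5 to 194 CPM in K556R refed and from 70.1 over 148 to 176 CPM in WT refed livers. It ranged from 93.7 over 122 to 157 CPM in K556R fasted and from 70.7 over 91.0 to 154 CPM in WT fasted livers. The groups overlapped throughout, though all 7 K556R fasted livers were above the WT fasted median. In WT livers Cyp7a1 was log2 0.55 higher refed than fasted (SE 0.21, adjusted p = 0.0962), with 5 of 6 refed livers above the fasted median. The exception among WT refed livers was batch 1 replicate 2, at 70.1 CPM.

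Without that library the WT refeeding difference was 0.69 (adjusted p = 0.0286) and without WT fasted batch 2 replicate 2 it was 0.66 (adjusted p = 0.0464), both called by edgeR. Over all 41 alternatives the adjusted p ran from 0.024 to 0.331 with 3 of them calling it. In K556R livers the refeeding difference of Cyp7a1 was log2 -0.06 (SE 0.203, 95% interval -0.45 to 0.34, adjusted p = 0.899). K556R minus WT was log2 0.38 in fasted livers (SE 0.203, adjusted p = 0.566) and -0.22 in refed livers (SE 0.211, adjusted p = 0.816). The difference between those 2 effects was -0.61 (SE 0.293, 95% interval -1.18 to -0.03, adjusted p = 1). Within batches it was -0.78 in batch 1 and -0.40 in batch 2.

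Cyp8b1 was lower in K556R refed than in WT refed livers by an amount that did not pass the test. Separately, promoter windows were matched for 5 members, not including Cyp7a1, and only that of Cyp8b1 held an Hnf4a or Nr5a2 motif. Cyp8b1 (ENSMUSG00000050445, GRCm38 chromosome 9, 121914356 to 121916305, minus strand) ranged from 208 over a median of 289 to 419 CPM in K556R refed and from 333 over 403 to 548 CPM in WT refed livers. It ranged from 295 over 414 to 469 CPM in K556R fasted and from 356 over 451 to 586 CPM in WT fasted livers. Of 8 K556R refed livers, 5 lay below all 6 WT refed livers and 1 lay above their median, and the groups overlapped. The promoter windows are printed for Cyp8b1 and, for comparison, for the called genes Cyp27a1 and Acox2, from RefSeq on GRCm38.p6, 5′ to 3′ on the gene's strand, with 250 bases before and 50 after the annotated start. Capitals mark CAAAGTCCA, which matches the Hnf4a core CAAAGNCCA, and the overlapping CAAGGGCA, which matches the Nr5a2 half-site CAAGGNCA.
Cyp8b1 (chr9:121916256-121916555, minus strand): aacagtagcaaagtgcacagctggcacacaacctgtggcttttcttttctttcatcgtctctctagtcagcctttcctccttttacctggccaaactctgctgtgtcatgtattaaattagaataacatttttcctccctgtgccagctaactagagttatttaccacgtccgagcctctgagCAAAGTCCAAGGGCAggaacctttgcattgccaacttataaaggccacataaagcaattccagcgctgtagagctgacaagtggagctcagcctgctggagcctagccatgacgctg
Cyp27a1 (chr1:74713285-74713584, plus strand): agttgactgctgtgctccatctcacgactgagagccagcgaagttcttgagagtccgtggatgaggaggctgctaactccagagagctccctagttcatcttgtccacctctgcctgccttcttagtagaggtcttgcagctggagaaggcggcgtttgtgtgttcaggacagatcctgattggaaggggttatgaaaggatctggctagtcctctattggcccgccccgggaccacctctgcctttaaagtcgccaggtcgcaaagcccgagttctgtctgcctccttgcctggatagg
Acox2 (chr14:8258970-8259269, minus strand): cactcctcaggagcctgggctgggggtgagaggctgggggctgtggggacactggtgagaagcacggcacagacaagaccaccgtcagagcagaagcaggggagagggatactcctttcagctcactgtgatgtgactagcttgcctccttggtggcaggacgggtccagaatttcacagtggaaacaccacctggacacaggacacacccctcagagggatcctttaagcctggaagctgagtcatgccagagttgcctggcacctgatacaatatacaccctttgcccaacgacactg

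In the Cyp8b1 window the Hnf4a core match covers positions -67 to -59 and the Nr5a2 half-site match positions -60 to -53, counted from -1 at the base before the start, on the promoter strand. Windows were matched for 5 of the 10 members, Cyp8b1, Cyp27a1, Akr1d1, Hsd3b7 and Acox2, the last with 2 starts. Cyp7a1, Cyp7b1, Amacr, Baat and Slc27a5 had no matched window, so their promoters were not searched. Both strands were searched, and apart from Cyp8b1 no window held either motif. Of 32851 RefSeq promoter windows of the same length, 6.71% held CAAGGNCA and 1.98% held CAAAGNCCA. The inverted repeat bound by Nr1h4, the bile acid receptor, was in 0.00913% of windows and in none of the members' windows. A match is a run of letters and was not tested as a binding site.

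The Cyp8b1 difference between K556R refed and WT refed livers was log2 -0.45 (SE 0.141, 95% interval -0.73 to -0.17, adjusted p = 0.353), and 152 tested genes had a smaller p in that contrast. It was -0.63 in batch 1 and -0.23 in batch 2, the same direction in both. In fasted livers K556R minus WT was -0.19 (SE 0.136, adjusted p = 0.697). The mean of both states was -0.32 (SE 0.098, adjusted p = 0.0954), and this value passed the threshold by DESeq2 (adjusted p = 0.0469) and by limma voom with quality weights (adjusted p = 0.0319), within a range of 0.0319 to 0.658 over 40 alternatives. In K556R livers, refed minus fasted was -0.37 and not called (SE 0.136, adjusted p = 0.0614, range 0.0173 to 0.32 with 5 of 41 alternatives calling it). With all libraries it was called by DESeq2 (adjusted p = 0.0429) and by limma voom with quality weights (adjusted p = 0.0227). By edgeR it was called without K556R fasted batch 1 replicate 1 (-0.43), without K556R refed batch 1 replicate 1 (-0.46) and without K556R refed batch 2 replicate 2 (-0.42). In WT livers the refeeding difference was -0.12 (SE 0.142, adjusted p = 0.691). Without the 2 libraries that stood apart the refed genotype difference was -0.45 again.

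On the alternative route, Cyp27a1 fell with refeeding in K556R livers. Cyp27a1 (ENSMUSG00000026170, GRCm38 chromosome 1, 74713574 to 74737892, plus strand) ranged from 289 over a median of 338 to 380 CPM in K556R refed and from 384 over 463 to 513 CPM in K556R fasted livers. All 8 refed livers lay below all 7 fasted livers, in each batch and across both. The difference was log2 -0.43 (SE 0.0818, 95% interval -0.59 to -0.27, adjusted p = 0.000364), a level 0.741 times that of fasted livers. Within batches it was -0.37 in batch 1 (adjusted p = 0.0253) and -0.49 in batch 2 (adjusted p = 0.00563). How many of all tested genes separate refed from fasted livers without overlap was not counted. This holds for each refeeding comparison without overlap given below as well.

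In WT livers Cyp27a1 ranged from 317 over a median of 385 to 540 CPM refed and from 383 over 459 to 561 CPM fasted. These groups overlapped, and the highest refed value, 540 CPM, belonged to batch 2 replicate 1, which stood apart over all genes. The WT refeeding difference was log2 -0.21 (SE 0.0857, adjusted p = 0.132) with all libraries. Without the 2 libraries that stood apart it was -0.29 and called (adjusted p = 0.0127, range 0.0127 to 0.671 over 41 alternatives, 3 of which called it), while the K556R refeeding difference was then -0.47 (adjusted p = 2.6e-05, range 7.65e-06 to 0.0522 over 41 alternatives, 40 of which called it). Without WT refed batch 2 replicate 1 alone, the WT difference was -0.29 as well (adjusted p = 0.0208). The refeeding responses of the 2 genotypes differed by -0.23 (SE 0.118, 95% interval -0.46 to 0.01, adjusted p = 1). K556R refed minus WT refed was -0.26 and not called (SE 0.0852, adjusted p = 0.382), with all 8 K556R livers below the WT refed median, and K556R minus WT in fasted livers was -0.04 (SE 0.0819). Without the 2 libraries that stood apart the refed genotype difference was -0.22 and not called.

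Cyp7b1 was the most variable member, and with all libraries its refeeding difference in K556R livers had opposite signs in the 2 batches. Cyp7b1 (ENSMUSG00000039519, GRCm38 chromosome 3, 18071950 to 18243338, minus strand) stood at 119, 33.5, 38.9 and 517 CPM in the K556R refed livers of batch 1 and at 41.0, 44.9, 33.9 and 31.1 CPM in the K556R fasted livers of that batch. In batch 2 it stood at 20.4, 28.8, 41.1 and 33.0 CPM in K556R refed livers, against 149, 221 and 94.2 CPM in K556R fasted livers. In batch 1 the 2 groups overlapped, with 2 refed livers high, and in batch 2 all 4 refed livers lay below all 3 fasted livers. WT refed livers had 48.0, 23.7 and 37.3 CPM in batch 1 and 286, 56.6 and 37.9 CPM in batch 2. WT fasted livers had 22.8, 63.4, 42.2 and 28.1 CPM in batch 1 and 104, 28.8, 59.9 and 60.5 CPM in batch 2. In WT livers refed and fasted values overlapped in both batches, and the 2 highest Cyp7b1 values of all 29 livers, 517 and 286 CPM, were those of the 2 libraries that stood apart over all genes.

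The K556R refeeding difference of Cyp7b1 was log2 2.23 in batch 1 (SE 0.651, adjusted p = 0.0263) and -2.33 in batch 2 (SE 0.685, adjusted p = 0.024). The batch 1 value includes K556R refed replicate 4 at 517 CPM, which stood apart over all genes, and was not estimated without it. The other K556R refed livers of batch 1 had 119, 33.5 and 38.9 CPM, against 31.1 to 44.9 CPM in fasted livers. The difference between batches, batch 1 minus batch 2, was 4.56 (SE 0.945, 95% interval 2.70 to 6.41, adjusted p = 0.0116), the only member called in that test (1 of 10, higher, where 3.54% of tested genes were called, 2.23% higher and 1.31% lower). The count over all genes was 552, against 382 without the 2 libraries that stood apart and 113 to 745 with single libraries left out. It was called by edgeR with each of the 29 libraries left out in turn, at 3.09 (without K556R refed batch 1 replicate 4) to 4.91, and was 3.10 without the 2 libraries that stood apart (adjusted p = 0.00649). Averaged over batches, the K556R refeeding difference was 0.56 (SE 0.696, adjusted p = 0.657), and it was -0.76 without those 2 libraries and -0.66 without K556R refed batch 1 replicate 4 alone. The batches had opposite signs for the refed genotype effect too, 2.29 in batch 1 and -2.04 in batch 2, a difference of 4.32 (SE 0.998, adjusted p = 0.086) that was 1.44 without the 2 libraries. It was called without K556R refed batch 1 replicate 2 (4.68), K556R refed batch 1 replicate 3 (4.66) or WT refed batch 2 replicate 3 (4.77). No member was called in the other 3 tests between batches, those of the K556R effect in refed livers, the K556R effect in fasted livers and the WT refeeding response (0 of 10 each, against 0% of genes each by edgeR, with 4, 1 and 2 members at an unadjusted p below 0.05). In those 3 tests DESeq2 called Cyp7b1 in the refed one and no member in the others.

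Among the 10981 genes whose average log2 CPM reached 1, the patterns most like that of Cyp7b1 over the 29 livers, after centring each batch, were those of C8b (Pearson r = 0.98), Serpina1c (0.96) and Serpina1e (0.95). C8b encodes a chain of complement component 8 and the Serpina1 genes encode alpha-1-antitrypsins. Without the 2 libraries that stood apart the coefficients were 0.96, 0.93 and 0.93. C8b was at 377 CPM in K556R refed batch 1 replicate 4 and 258 CPM in WT refed batch 2 replicate 1, and between 28.8 and 223 CPM in the other 27 livers. Serpina1e ran from 61.8 to 3800 CPM, and the Serpina1 paralogs are near-identical, so their counts are uncertain. The libraries share batch and depth, and these coefficients are a description. The spread of Cyp7b1 within group and batch was 0.969 as a log2 SD, larger than that of 99.1% of the 15603 tested genes, whose median was 0.233.

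**Figure D3:**
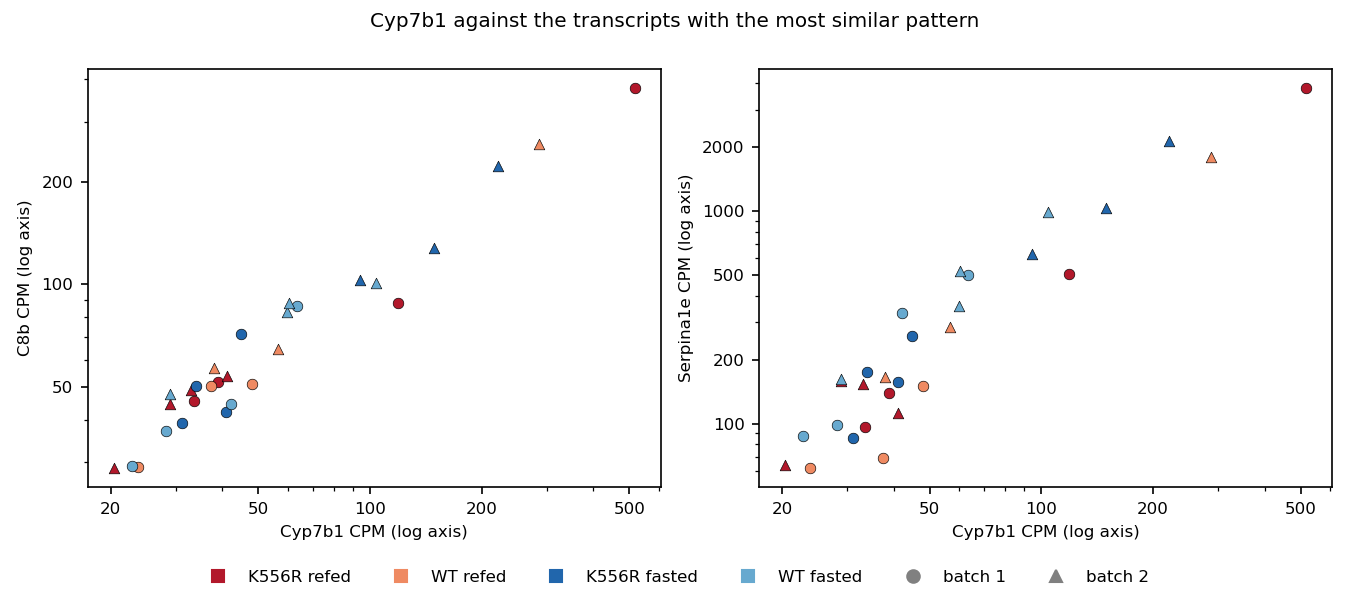
Cyp7b1 against C8b (left) and Serpina1e (right) in each liver, as CPM on log axes, coloured by group with circles for batch 1 and triangles for batch 2. Points run along 1 rising line through all 4 groups and both batches, with K556R refed batch 1 replicate 4 at the top (517 CPM Cyp7b1, 377 CPM C8b).

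The genes most like the other route enzymes were less close. Cyp27a1 went with Ahcy (r = 0.92), Sdc4 (0.89) and Fam214a (0.89), Cyp8b1 with Cluh (0.80), Retsat (0.80) and Agpat3 (0.79), and Cyp7a1 with Ubap1 (0.57), Ntan1 (0.56) and Actr10 (0.53). Such genes were picked as the closest among the 10981, so high coefficients were selected for, and none was tested. Among the members themselves, after removing the mean of each group and batch, the closest pair was Cyp7b1 with Amacr (r = 0.81, and 0.52 without the 2 libraries that stood apart). With all libraries Cyp27a1 with Slc27a5 came next (0.68, and 0.65 without them), and without those 2 libraries the closest pair was Akr1d1 with Slc27a5 (0.72, and 0.56 with all).

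Cyp7a1 was set against 11 genes, as residuals from the mean of each group and batch, with permutation of libraries within group and batch. Its closest relation was with Cyp8b1 (Pearson r = 0.57, permutation p = 0.0116, adjusted p = 0.128; Spearman rho = 0.54, permutation p = 0.0115, adjusted p = 0.127, two-sided, 100000 resamples). The coefficient was 0.67 in batch 1 and 0.49 in batch 2, and 0.40 without the 2 livers farthest from the Cyp7a1 median. None of the 11 relations passed the adjustment. Cyp7a1 with Cyp7b1, the 7-alpha-hydroxylases of the 2 routes, gave r = -0.02 and rho = -0.08 (permutation p = 0.957 and 0.712, adjusted p = 0.957 and 0.712), with 0.28 in batch 1 and -0.48 in batch 2. Cyp7a1 with Nr0b2, the repressor induced by bile acid signalling, gave r = -0.19 and rho = -0.24 (permutation p = 0.232 and 0.19, adjusted p = 0.365 and 0.338).

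Route ratios were taken per length between transcripts. Those of Cyp7a1 or Cyp8b1 over Cyp7b1 spread widely within each group, and that of Cyp7a1 over Cyp27a1 less so. The log2 ratio of Cyp7a1 over Cyp7b1 had a median of 0.22 in K556R refed (range -3.39 to 1.88), 0.66 in WT refed (-1.92 to 1.29), 0.26 in K556R fasted (-2.18 to 1.08) and 0.06 in WT fasted livers (-1.26 to 1.47). All 4 groups overlapped, and the ratio was below 0 in 10 of 29 livers. In K556R refed livers the median was -0.09 in batch 1 and 1.23 in batch 2, against 0.88 in batch 1 and -0.87 in batch 2 in K556R fasted livers. Cyp7a1 over Cyp27a1 was below 0 in 29 of 29 livers, with medians of -2.66 in K556R refed, -2.44 in WT refed, -2.71 in K556R fasted and -3.23 in WT fasted livers. Cyp8b1 over Cyp7b1 was above 0 in all livers but K556R refed batch 1 replicate 4, at -0.83, with medians of 3.06 in K556R refed, 3.39 in WT refed, 3.00 in K556R fasted and 3.48 in WT fasted livers. These ratios were not tested. They compare transcript levels of single enzymes and do not measure how much either route is used.

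**Figure D4:**
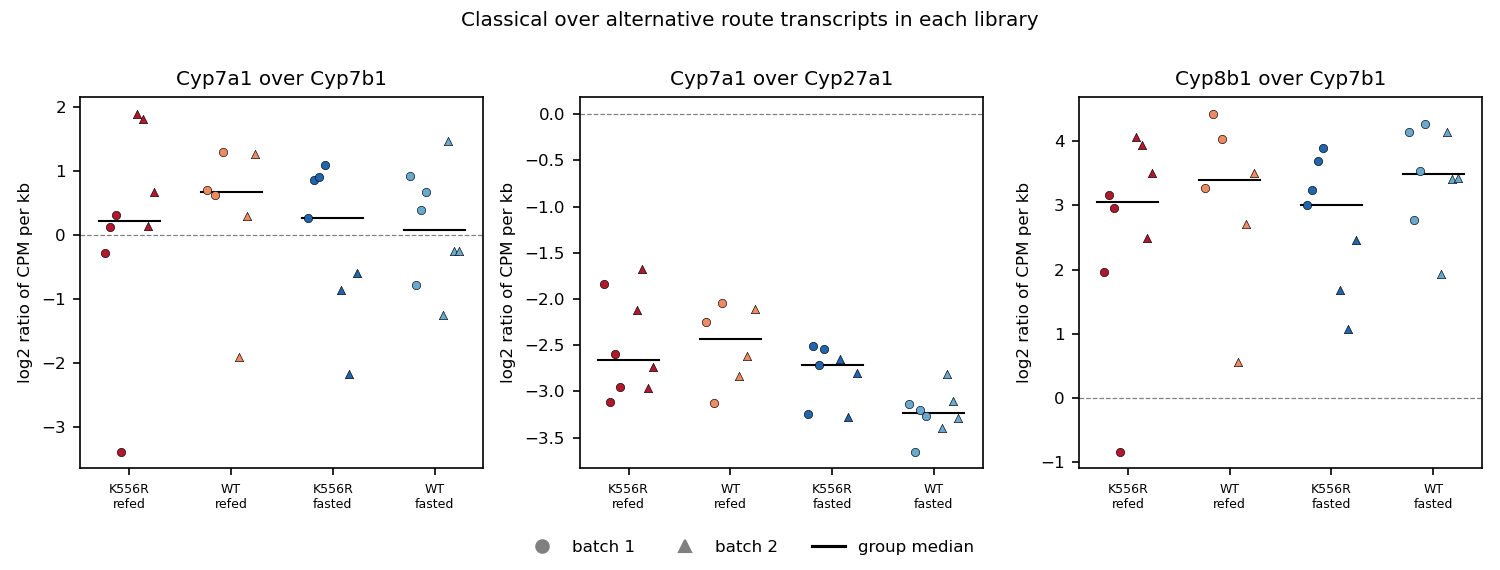
Log2 ratio of CPM per kb in each liver for Cyp7a1 over Cyp7b1 (left), Cyp7a1 over Cyp27a1 (middle) and Cyp8b1 over Cyp7b1 (right), by group, with circles for batch 1, triangles for batch 2, black lines for group medians and a dashed line at equal levels. Cyp7a1 lies below Cyp27a1 in 29 livers, while Cyp7a1 over Cyp7b1 falls on both sides of 0 in each group.

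Neither ring enzyme was called in any contrast over both batches. Akr1d1 (ENSMUSG00000038641, GRCm38 chromosome 6, 37530173 to 37568815), the 5-beta-reductase of sterol intermediates, averaged 211 ± 29.5 CPM in K556R refed (SD, n = 8), 202 ± 52.1 in WT refed (n = 6), 182 ± 41.5 in K556R fasted (n = 7) and 164 ± 33.2 in WT fasted livers (n = 8). Refed minus fasted was log2 0.23 in K556R (SE 0.139, adjusted p = 0.305) and 0.30 in WT livers (SE 0.144, adjusted p = 0.217), positive in both batches of both genotypes. Hsd3b7 (ENSMUSG00000042289, GRCm38 chromosome 7, 127800604 to 127803802), which isomerises the ring after 7-alpha-hydroxylation, had only 2 to 74 counts per library. It stood at 1.30 to 3.11 CPM in batch 1 and 0.0934 to 1.17 CPM in batch 2, so the batches did not overlap. Its K556R refeeding difference was log2 0.27 (SE 0.289, adjusted p = 0.598), with the opposite signs of 0.72 in batch 1 and -0.57 in batch 2, and it was called when batch 1 was fitted alone (0.73, adjusted p = 0.0452). In the GENCODE annotation 62.0% of its exon bases are shared with Gm49388 on the same strand and 62.4% with 9430064I24Rik on the opposite strand, with 0 and 418 counts in all 29 libraries. How shared reads were counted and whether strand was used are not given in the sources used here, so the level of Hsd3b7 is uncertain.

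Of the peroxisomal side-chain enzymes, Acox2 fell with refeeding in K556R livers. Acox2 (ENSMUSG00000021751, GRCm38 chromosome 14, 8225511 to 8259353, minus strand), the branched-chain acyl-CoA oxidase, had 220, 208, 211 and 205 CPM in K556R refed livers of batch 1, against 270, 258, 264 and 273 CPM in K556R fasted livers. In batch 2 it had 188, 180, 163 and 176 CPM in K556R refed livers, against 208, 213 and 200 CPM in K556R fasted livers. Within each batch every refed liver was below every fasted liver, and batch 1 was the higher batch. The difference was log2 -0.29 (SE 0.0732, 95% interval -0.44 to -0.15, adjusted p = 0.0056), -0.33 in batch 1 (adjusted p = 0.0104) and -0.23 in batch 2 (adjusted p = 0.0952). Without the 2 libraries that stood apart it was -0.28 (adjusted p = 0.000604, range 0.000292 to 0.151 over 41 alternatives, 40 of which called it). In WT livers Acox2 had 196, 199 and 217 CPM refed against 239, 268, 275 and 268 CPM fasted in batch 1, where the groups did not overlap, and 264, 187 and 194 CPM refed against 193, 228, 195 and 220 CPM fasted in batch 2, where they did.

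The WT refeeding difference of Acox2 was log2 -0.16 with all libraries (SE 0.0766, adjusted p = 0.223), and -0.26 and called without the 2 libraries that stood apart (adjusted p = 0.00328, range 0.00328 to 0.913 over 41 alternatives, 4 of which called it). Without WT refed batch 2 replicate 1 alone it was -0.26 too (adjusted p = 0.00363). It was -0.37 in batch 1 (adjusted p = 0.0165) and 0.04 in batch 2, and the difference between batches was -0.41 (SE 0.13, adjusted p = 0.364). Without the 2 libraries that stood apart the difference between batches was -0.225 and not called. The refeeding responses of the 2 genotypes differed by -0.14 (SE 0.106, adjusted p = 1), and by -0.016 without those 2 libraries. Amacr (ENSMUSG00000022244, GRCm38 chromosome 15, 10981756 to 10996626), the racemase that supplies Acox2 with the usable side-chain isomer, had the smallest spread of the 10 genes, a log2 SD of 0.111 within group and batch. It averaged 137 ± 15.4 CPM in K556R refed (SD, n = 8), 149 ± 16.5 in WT refed (n = 6), 148 ± 13.7 in K556R fasted (n = 7) and 156 ± 8.09 in WT fasted livers (n = 8), and no contrast over both batches called it. Refed minus fasted in K556R livers was 0.03 in batch 1 and -0.28 in batch 2, where it was called (adjusted p = 0.0352). Without the 2 libraries that stood apart, Amacr was called lower with refeeding in K556R livers (-0.17, adjusted p = 0.0234, against -0.12 and adjusted p = 0.288 with all libraries, range 0.0234 to 0.839 over 41 alternatives). K556R refed batch 1 replicate 4 had the highest Amacr value of its group, 173 CPM.

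Neither enzyme of the last steps was called in any contrast over both batches. Slc27a5 (ENSMUSG00000030382, GRCm38 chromosome 7, 12988346 to 12998192), the bile acyl-CoA synthetase, averaged 623 ± 54.2 CPM in K556R refed (SD, n = 8), 716 ± 95.5 in WT refed (n = 6), 713 ± 131 in K556R fasted (n = 7) and 763 ± 141 in WT fasted livers (n = 8). K556R minus WT was log2 -0.19 in refed livers (SE 0.094, adjusted p = 0.59), with values of 571 to 660 CPM in K556R against 708 to 846 CPM in WT livers in batch 2, which did not overlap, as for 6.04% of tested genes in that direction, and overlapping values in batch 1. In K556R livers of batch 2, Slc27a5 had 571, 643, 652 and 660 CPM refed, against 888, 873 and 728 CPM fasted, a called difference of -0.39 (adjusted p = 0.0363) without overlap. In batch 1 the same difference was -0.03, and over both batches it was -0.20 (SE 0.0902, adjusted p = 0.145). Baat (ENSMUSG00000039653, GRCm38 chromosome 4, 49489422 to 49506557), which joins bile acids to taurine or glycine, averaged 282 ± 37.2 CPM in K556R refed, 292 ± 27.5 in WT refed, 264 ± 17.4 in K556R fasted and 256 ± 25.0 in WT fasted livers. Its refed genotype effect was 0.13 in batch 1 and -0.24 in batch 2 (difference 0.37, SE 0.146, adjusted p = 0.32). Without the 2 libraries that stood apart that difference was 0.28 and not called.

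As a group, the 10 members had a median log2 difference of -0.12 for K556R against WT in refed livers (all tested genes -0.001) and -0.01 in fasted livers (all genes 0.00). For refeeding the medians were -0.09 in K556R livers (all genes 0.01) and -0.08 in WT livers (all genes 0.00). In refed livers 7 of 10 members were lower in K556R, and 5 of 10 in fasted livers. Of the 15603 tested genes, 7866 were lower in K556R in refed and 7818 in fasted livers. The refed log2 difference was negative for every member in batch 2, with Akr1d1 at -0.004. In batch 1 it was positive for Amacr (0.05), Acox2 (0.05), Baat (0.13), Akr1d1 (0.115), Hsd3b7 (0.48) and Cyp7b1 (2.29), and negative for the others. These differences within batches were not estimated without the 2 libraries that stood apart. Beside these, the 6 pericentral hepatocyte markers summed to 6300 to 8660 CPM in K556R refed, 6800 to 11700 in WT refed, 7400 to 12000 in K556R fasted and 7120 to 13800 CPM in WT fasted livers, with 1 of 6 called lower with refeeding in K556R (8.38% of tested genes were) and 0 of 6 in WT livers (5.43% were). The 6 periportal markers summed to 2320 to 3170 CPM in K556R refed, 2640 to 3320 in WT refed, 3860 to 5590 in K556R fasted and 3700 to 6270 CPM in WT fasted livers, with 2 of 6 called lower with refeeding in each genotype, against the same backgrounds. Called or not, 3 of the 6 periportal markers were lower and 3 higher with refeeding in K556R livers (median log2 difference -0.05). In WT livers 6 of 6 were lower (median -0.20). The lower sums in refed K556R livers are thus not shared by all markers of that list. The part of these zone markers in the refeeding results of Cyp27a1 and Acox2 was not tested.

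Of 14 other genes of bile acid synthesis 13 were tested, Ch25h not, and 3 were called lower and 0 higher with refeeding in each genotype (backgrounds 8.38% lower and 6.98% higher in K556R, 5.43% lower and 5.25% higher in WT). Por, which passes electrons to the microsomal enzymes Cyp7a1, Cyp8b1 and Cyp7b1, fell by 0.99 in K556R (SE 0.18, adjusted p = 0.000233) and by 0.91 in WT livers (SE 0.188, adjusted p = 0.00161) on the log2 scale. Slc27a2, an acyl-CoA synthetase of side-chain intermediates, fell by 0.46 in K556R (adjusted p = 0.000642) and by 0.31 in WT livers (adjusted p = 0.0396). The third gene in both was the peroxisomal thioesterase Acot8, named after its values were seen (-0.33 in K556R, adjusted p = 0.0108, and -0.28 in WT, adjusted p = 0.0481). The K556R refeeding response of Por differed between batches by -1.10, batch 1 minus batch 2 (SE 0.296, adjusted p = 0.0367), the only one of the 13 called there, and it was -0.99 and not called without the 2 libraries that stood apart (adjusted p = 0.0744). Without them Acot8 was not called in WT livers either (-0.26, adjusted p = 0.1), and the lower calls were 4 in K556R and 2 in WT livers. Over all genes 2602 were then called in K556R and 1783 in WT livers, both directions together. No gene of this list was called for genotype. Fdx1, the electron carrier of Cyp27a1, had the smallest p for the mean of both states (-0.21, SE 0.0598, adjusted p = 0.0716) and was -0.25 in refed livers (adjusted p = 0.406).

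Of 15 regulators, refeeding gave 1 called higher and 8 lower in K556R livers, and 1 higher and 3 lower in WT livers, where 6.98% of tested genes were called higher and 8.38% lower in K556R, and 5.25% higher and 5.43% lower in WT livers. The counts were 2 higher and 8 lower in K556R and 0 higher and 4 lower in WT livers without the 2 libraries that stood apart. Ppara, the fatty acid receptor, fell by 0.84 in K556R (SE 0.106, adjusted p = 1.63e-06) and by 0.67 in WT livers (SE 0.112, adjusted p = 0.000157). Rxra, the partner of Nr1h4 and Ppara, fell by 0.35 in K556R (adjusted p = 0.000116) and by 0.22 in WT livers (adjusted p = 0.0202). In K556R livers Hnf4a fell by 0.31 (adjusted p = 0.00092) and the coactivator Ppargc1a by 0.70 (adjusted p = 0.00139). In WT livers Hnf4a was at -0.15 (adjusted p = 0.158) and Ppargc1a at -0.44 (adjusted p = 0.0673), while Dbp, a clock-driven activator of Cyp7a1, fell by 0.65 (adjusted p = 0.0417) and the oxysterol receptor Nr1h3 rose by 0.19 (adjusted p = 0.0391). In WT livers without those 2 libraries, Hnf4a was at -0.22 and called (adjusted p = 0.0217), and Nr1h3 at 0.16 was not (adjusted p = 0.1).

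Prox1 itself fell with refeeding in K556R livers (-0.31, SE 0.0867, adjusted p = 0.0119) and was at -0.09 in WT livers (SE 0.0908, adjusted p = 0.634), a difference between genotypes of -0.23 (SE 0.125, adjusted p = 1). Prox1 without the 2 libraries that stood apart was at -0.39 in K556R (adjusted p = 0.000171) and -0.02 in WT livers (adjusted p = 0.937), a difference of -0.37 (adjusted p = 1). Nr0b2 ranged from 27.0 over a median of 33.2 to 50.3 CPM in K556R refed livers, against 10.1 over 19.2 to 27.5 CPM in K556R fasted livers. It rose by 0.85 with refeeding in K556R livers (SE 0.26, adjusted p = 0.0232), and the only overlap was between 27.0 and 27.5 CPM. In WT livers it ranged from 12.1 over 37.1 to 44.1 CPM refed and from 17.2 over 33.2 to 64.1 CPM fasted, and refed minus fasted was -0.06 (SE 0.266, adjusted p = 0.923). This WT value combined 0.58 in batch 1 (SE 0.338, adjusted p = 0.421) with -0.73 in batch 2 (SE 0.348, adjusted p = 0.24), a difference between batches of 1.31 (SE 0.485, adjusted p = 0.431). The lowest WT refed value, 12.1 CPM, was that of batch 2 replicate 1. The WT value without that library and the other one that stood apart was 0.15 (adjusted p = 0.787) and that of K556R livers 0.85 (adjusted p = 0.0103). With all libraries the 2 responses differed by 0.91 (SE 0.375, adjusted p = 1), and by 0.70 without those 2 (adjusted p = 1). No regulator was called for genotype, the smallest p being that of Nr0b2 in fasted livers (-0.89, SE 0.261, adjusted p = 0.214), Rxra in refed livers (-0.21, SE 0.0624, adjusted p = 0.285) and Rxra again for the mean of both states (-0.15, SE 0.0433, adjusted p = 0.0773).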

How the data were processed

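Messenger RNA was purified on poly-T beads from 29 livers, and per the labels' protocols libraries were either directional or not, without saying which. The deposited values are raw counts per gene, whole numbers made by the authors. Of tools, STAR, STAR-Fusion, TopHat, HTSeq, edgeR and DESeq2 are named, with no role or version, per the submitters' processing notes, which also give mm10 as the build. Depth was 19065976 to 27278251 counts per library in batch 1 and 14385218 to 23526145 in batch 2. Positions and symbols come from GENCODE M21 on GRCm38 (mm10), which matched 54409 of 54532 identifiers, and promoters from RefSeq GRCm38.p6.

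Genes were filtered with filterByExpr (minimum count 10, minimum total 15), leaving 15603 genes with 99.92% of counts, and scaled by TMM (R 4.3.3, edgeR 4.0.16). The model was edgeR's quasi-likelihood fit over all 29 libraries with 1 coefficient per genotype and feeding group and a batch term. Effects within batches and differences between batches come from a fit with 1 coefficient per group and batch. Two-sided p-values were adjusted by Benjamini-Hochberg over all tested genes of a contrast, and a gene is called below 0.05. Standard errors are the fold change over the root of the F statistic, with normal 95% intervals. Log2 CPM uses a prior count of 2, and log2 ratios use CPM per kilobase of exon. The procedure was tested on simulated data.

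The members, the other lists and the tests were chosen with earlier results of these data known. By the rule for names the text gives all 10 members, from the 2 other lists at most 6 called genes per contrast (smallest p first, or the 2 smallest where fewer than 2 were called) and the 3 closest genes for each route enzyme; Prox1 and Nr0b2 are named as set against Cyp7a1. Cell-type lists of hepatocytes, macrophages, endothelial cells, cholangiocytes, stellate cells, lymphocytes, adipocytes and zones were summed. Macrophage markers summed to 141 to 566, endothelial to 103 to 198, cholangiocyte to 42.5 to 176, stellate to 165 to 406 and lymphocyte markers to 1.16 to 11.3 CPM over the 29 libraries. The lowest endothelial, stellate and lymphocyte sums were those of K556R refed batch 1 replicate 4. The lowest cholangiocyte sum was that of WT refed batch 2 replicate 1. Macrophage sums of these 2 libraries that stood apart were 281 and 242 CPM, against a median of 282. The part of cell content in their other values was not tested.

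Alternatives were DESeq2 1.42.0, voom with quality weights (limma 3.58.1), other scalings and filters, no batch term, each batch alone, only the groups compared, a replicate block and each library left out. The fit without the 2 libraries that stood apart was added after seeing the data. No protein sequence was used here.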

Additional observations from a re-analysis of the deposited data

Results flagged for a closer look

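Within groups of 6 to 8 livers, 4 single values lay farther from the rest on the log2 CPM scale than Dixon's 95% limit allows, of 40 combinations of gene and group, and chance gives about 1 in 20. One pair belongs to the libraries that stood apart over all genes. Cyp7b1 was at 286 CPM in WT refed batch 2 replicate 1, and Amacr at 173 CPM in K556R refed batch 1 replicate 4, each the highest of its group. The other two belong to WT refed batch 1 replicate 2, the lowest of its group for Cyp7a1 at 70.1 CPM and for Baat at 239 CPM.

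The response of Cyp7b1 to refeeding in K556R livers differed between the batches by 4.56 on the log2 scale (batch 1 minus batch 2, adjusted p = 0.0116 by edgeR's quasi-likelihood test, range 4.64e-05 to 0.0446 over 36 alternatives, all of which called it).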

How the results depend on the processing

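Leaving out each of the 29 libraries in turn kept the sign and the side of the threshold for 2796 of 2900 member values, with 11 newly called and 93 of changed sign. Other settings kept 909 of 982 values, with 17 newly called, 2 no longer called and 54 of changed sign. Those 982 also hold the median route ratio of each group, which has no threshold. A ratio counted as kept if using the longest transcript as length moved its median by less than its SD. The 2 lost calls were K556R refeeding values within 1 batch, Cyp27a1 in batch 1 alone and Acox2 in batch 2 alone.

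The values of changed sign follow on the log2 scale, where fasted, refed and mean are genotype effects and states is the difference between states. Batch 1 alone gave for Acox2 0.034 (mean), 0.049 (refed) and 0.03 (states), for Amacr 0.048 (refed), 0.13 (states) and 0.043 (K556R refeeding), for Baat 0.087 (mean), 0.13 (refed) and 0.093 (states), for Cyp7b1 -0.054 (fasted), 2.35 (states) and -0.10 (WT refeeding), for Cyp8b1 0.18 (WT refeeding) and for Hsd3b7 0.034 (mean). Batch 2 alone gave for Acox2 0 (fasted) and 0.034 (WT refeeding), for Akr1d1 -0.23 (fasted), -0.12 (mean), -0.004 (refed) and 0.23 (states), for Baat -0.11 (K556R refeeding), for Cyp7a1 0.071 (K556R refeeding), for Cyp7b1 -0.37 (mean), -2.04 (refed) and -2.34 (K556R refeeding, adjusted p = 0.0143), and for Hsd3b7 -0.29 (refed), -0.16 (states) and -0.58 (K556R refeeding). Voom with quality weights gave for Akr1d1 -0.031 (refed), for Cyp7a1 -0.014 (mean) and for Cyp7b1 -0.29 (refed) and -0.68 (K556R refeeding). For batch differences voom gave 0.04 for Amacr and 0.04 for Cyp7b1 (WT refeeding), and 0.002 for Amacr, 0.004 for Cyp27a1 and 0.006 for Hsd3b7 (fasted). Without the 2 libraries that stood apart, Acox2 was 0.003 (mean), Akr1d1 -0.007 (refed) and Cyp7b1 -0.76 (K556R refeeding) and -0.25 (WT refeeding). Batch differences were then 0.048 for Amacr, 0.31 for Cyp7b1 and -0.052 for Hsd3b7 (WT refeeding), and 0.063 for Cyp7a1 (refed). The mean effect of Baat was 0.002 by DESeq2, 0.002 with RLE, 0.008 with a minimum count of 50, 0.003 with no filter and 0.013 with upper-quartile scaling, which gave Cyp7b1 0.003 (states). Fitting only the groups compared gave Cyp7b1 -0.13 (refed), and no batch term gave Hsd3b7 0.035 (mean).

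With single libraries left out, Acox2 ran from -0.008 to 0.035 (fasted), Akr1d1 from -0.036 to 0.16 (refed) and -0.15 to 0.034 (states), Amacr from -0.11 to 0.01 (states), Baat from -0.027 to 0.022 (mean), Cyp27a1 from -0.062 to 0.001 (fasted), Cyp7a1 from -0.22 to 0.033 (K556R refeeding) and Hsd3b7 from -0.12 to 0.058 (mean). Cyp7b1 ran from -0.52 to 1.42 (refed), -1.18 to 0.66 (states), -0.66 to 0.85 (K556R refeeding) and -0.30 to 0.78 (WT refeeding). Batch differences of the fasted effect ran from -0.028 to 0.066 for Acox2, -0.094 to 0.037 for Amacr, -0.092 to 0.046 for Baat, -0.09 to 0.066 for Cyp27a1, -0.10 to 0.12 for Cyp8b1 and -0.14 to 0.043 for Slc27a5. Those of the refed effect ran from -0.081 to 0.37 for Akr1d1, -0.41 to 0.22 for Cyp7a1 and -0.33 to 1.17 for Hsd3b7. Those of WT refeeding ran from -0.12 to 0.048 for Amacr, -0.12 to 0.042 for Baat, -0.14 to 0.43 for Cyp7a1, -1.55 to 0.31 for Cyp7b1 and -0.14 to 1.36 for Hsd3b7, and that of K556R refeeding from -0.62 to 0.007 for Cyp7a1. The causes were not tested.

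Members called for the mean genotype effect numbered 1 by DESeq2 and 1 by voom (Cyp8b1). For the batch difference of the refed effect the number was 1 by DESeq2 and 1 with no filter (Cyp7b1), and 0 to 1 with single libraries left out. For K556R refeeding it was 4 in batch 2 alone and 3 without the 2 libraries that stood apart. Over all genes those fits called 1925 and 2602. For WT refeeding it was 1 in batch 1 alone, 3 by voom, 2 without those 2 libraries and 0 to 2 with single libraries left out. The counts over all genes were 846, 2284, 1783 and 1322 to 1828 in that order.

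The replicate numbers recur in every group. Over 40 same-numbered pairs the residual correlation ran from -0.57 to 0.51 (median -0.064), with 9 pairs above 0.1. Of 29 libraries, 8 correlated best with their own number. These values cannot tell whether libraries of equal number share an origin. A replicate block, run for the contrasts over both batches and not for the batch differences, gave 2 called members in K556R refeeding and 0 in the others, and Cyp7b1 was then -0.14 in K556R refeeding.

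All genes called were 16 in the fasted genotype contrast, against 89 by DESeq2, 124 by voom, 33 in batch 1, 0 in batch 2, 2 with the block, 51 without the 2 libraries and 2 to 47 with single libraries left out. For the mean effect they were 194, against 425 by DESeq2, 125 in batch 1, 0 in batch 2, 92 with the block and 116 to 309 with single libraries left out. For the refed effect they were 0, against 45 by DESeq2, 61 by voom, 5 in batch 1, 7 in batch 2, 0 with the block, 3 without the 2 libraries and 0 to 20 with single libraries left out. The K556R refeeding batch difference had 552, against 947 by DESeq2, 1261 by voom, 382 without the 2 libraries and 113 to 745 with single libraries left out. That of the refed effect had 0, against 92 by DESeq2 and 0 to 106 with single libraries left out, and that of WT refeeding 0, against 31 by DESeq2, 17 by voom and 0 to 18 with single libraries left out. WT refeeding had 1667, against 846 in batch 1 and 592 in batch 2, and K556R refeeding 2396, against 1497 in batch 1. Hsd3b7 had as few as 2 counts in a library, and the cause of its low counts was not tested.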

Other observations

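In batch 2, 4 members had every K556R refed liver below every WT refed liver, with no overlap and none called. Of all 15603 tested genes, 6.04% had every K556R liver below every WT liver in that batch and 4.86% every K556R liver above, and 5 were called there by edgeR. Amacr had 127, 126, 132 and 129 CPM in K556R refed livers of batch 2, against 180, 144 and 150 CPM in WT refed livers. Baat had 232, 272, 277 and 258 CPM in K556R refed livers, against 319, 306 and 294 CPM in WT refed livers. Cyp27a1 had 322 to 352 CPM in K556R refed livers, against 394 to 540 CPM in WT refed livers, and Slc27a5 had 571 to 660 against 708 to 846 CPM. WT refed replicate 1 of batch 2, which stood apart over all genes, had the highest value in each of the 4 genes. The edgeR adjusted p-values within batch 2 were 0.178 for Amacr, 0.335 for Baat, 0.132 for Cyp27a1 and 0.326 for Slc27a5. In batch 1 the groups overlapped for all 4 genes, and the log2 differences of Amacr (0.05) and Baat (0.13) had the opposite sign there.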
